A study of Mus musculus with 4 samples.

Results

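The genes described here are 7 chemokine ligands of the CC and XC families, Ccl1, Ccl3, Ccl4, Ccl5, Ccl20, Ccl22 and Xcl1, out of 19938 genes with a named probe set in the series. They were picked by name, and selected on the difference between CYLD KO and WT arrays in these same data, with strongly higher and nearly flat ligands put side by side. Their knockout against wild-type values are therefore given as a description, without a test. Each of the 7 genes had exactly 1 probe set annotated with its symbol alone, and all 7 passed the filter on dim genes. Ccl3 passed it only through its knockout values, and Ccl22 only through its wild-type values.

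Regulatory T (Treg) cells, a CD4 T cell lineage specified by the transcription factor Foxp3, hold immune responses in check. The knockout genotype was Cyld fl/fl Foxp3-yfp-cre (CYLD KO, 2 arrays) and the control genotype Cyld+/+ Foxp3-yfp-cre (WT, 2 arrays). All mice were on the C57Bl6 strain and 6 to 8 weeks old. Both genotypes carry the Foxp3-yfp-cre allele, which drives Cre recombinase and yellow fluorescent protein in Foxp3-expressing cells, so the deletion is directed to cells in which Foxp3 is or was active. YFP-positive cells were sorted. The labels name spleen with lymph nodes in one place and spleen alone in another, and they do not say whether an array holds RNA of 1 mouse or of several. Whether replicates are biological or technical is therefore not known from the labels, although the 2 knockout arrays differed in sex-linked genes (values below). Every p-value below measures only the spread between these samples.

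Chemokines are small secreted proteins that guide leukocytes along gradients by binding G protein-coupled receptors. T cells release Ccl3, Ccl4, Ccl5 and Xcl1 after activation, and effector T cells keep Ccl5 transcripts in store. Ccl1 is the ligand of Ccr8, Ccl20 of Ccr6, Ccl22 of Ccr4 and Xcl1 of Xcr1, whereas Ccl3, Ccl4 and Ccl5 share receptors such as Ccr1. Many of these genes are known targets of NF-kB, the transcription factor family whose activation the deubiquitinase CYLD limits.

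Promoter sequence is shown first for 3 ligands that were higher in the knockout, and for Ccl20, which was not, so that ligands of unlike behaviour can be compared by eye. The sequences are the 250 bases before the gene start in RefSeq (GRCm38.p6). Windows were available for 5 of the 7 ligands, those shown and Ccl22, and not for Ccl4 and Ccl5. Each line runs 5′ to 3′ on the gene's strand. Capitals mark matches to the kB consensus of NF-kB or to GGAAAA, the core bound by NFAT, on either strand. The windows are chr11:82179813-82180062 (minus strand) for Ccl1, chr11:83649379-83649628 (minus strand) for Ccl3, chr1:164935523-164935772 (minus strand) for Xcl1 and chr1:83116516-83116765 (plus strand) for Ccl20.
Ccl1: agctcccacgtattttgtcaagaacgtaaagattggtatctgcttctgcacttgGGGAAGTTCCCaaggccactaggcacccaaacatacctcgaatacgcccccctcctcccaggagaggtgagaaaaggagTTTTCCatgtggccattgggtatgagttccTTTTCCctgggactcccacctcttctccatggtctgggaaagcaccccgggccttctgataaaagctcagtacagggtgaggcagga
Ccl3: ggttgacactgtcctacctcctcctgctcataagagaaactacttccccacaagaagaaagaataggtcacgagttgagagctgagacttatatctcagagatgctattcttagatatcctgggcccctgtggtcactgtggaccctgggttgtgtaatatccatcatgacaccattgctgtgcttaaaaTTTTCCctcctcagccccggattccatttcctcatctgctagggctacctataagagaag
Xcl1: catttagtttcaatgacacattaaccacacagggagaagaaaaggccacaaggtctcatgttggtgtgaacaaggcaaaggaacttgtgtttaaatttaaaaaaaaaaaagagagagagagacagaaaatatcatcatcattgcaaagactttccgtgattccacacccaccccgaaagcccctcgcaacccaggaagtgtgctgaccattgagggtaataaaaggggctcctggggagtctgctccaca
Ccl20: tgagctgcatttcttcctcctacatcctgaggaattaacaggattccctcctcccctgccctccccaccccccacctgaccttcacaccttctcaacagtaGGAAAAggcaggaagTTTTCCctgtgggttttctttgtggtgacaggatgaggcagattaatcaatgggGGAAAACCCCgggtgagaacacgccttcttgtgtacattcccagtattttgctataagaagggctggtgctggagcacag

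The kB consensus occurred in 2 of the 5 windows, those of Ccl1 and Ccl20. It occurred in 7.25% of all 32851 promoter windows of the same length. In Ccl1 the match lay 196 to 186 bases before the start and read on both strands. In Ccl20 it lay 80 to 71 bases before the start and overlapped a GGAAAA match. GGAAAA was present in the windows of Ccl1, Ccl3 and Ccl20, against 20.4% of all windows. The AP-1 motif TGANTCA, searched on both strands, was in 0 of the 5 windows and in 6.75% of all. Matches are letters in a window and were not tested as binding sites. Among the windows searched, a kB match was thus present in 1 ligand that was higher in the knockout (Ccl1) and in 1 that overlapped between the genotypes (Ccl20). It was absent from those of Ccl3, Xcl1 and Ccl22. Ccl5, which was also higher in the knockout, and Ccl4 were not searched.

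The deposited values are probe set intensities on a linear scale, and a difference is given as log2(intensity + 1), CYLD KO minus WT. Array medians lay between 99.0 and 105, and precision is limited by the number of arrays. Cyld read 284 and 218 in the knockout, against 524 and 502 in WT; whether its probe set lies inside the deleted part is not known here. CYLD KO replicate 2 differed from the other 3 arrays in sex-linked genes (Kdm5d 127, against 268 on CYLD KO replicate 1 and 271 and 275 in WT). Group means of sex-linked genes also differed between the genotypes. Xist read 1630 and 2321 in the knockout, against 1306 and 1403 in WT (limma adjusted p = 0.0291). Limma called Kdm5d (adjusted p = 0.0160) and Eif2s3y (adjusted p = 0.00242) lower in CYLD KO. Eif2s3y read 221 and 98.9 in the knockout, against 253 and 219 in WT, so its groups overlapped. On CYLD KO replicate 1 both genes lay close to WT, and the low values were those of CYLD KO replicate 2. The part of sex in the ligand values was not tested. Foxp3 read 1697 and 1553 in the knockout, against 2016 and 1881 in WT, with a log2 difference of -0.26 that did not pass limma's test (adjusted p = 0.395). Limma, run over 13956 genes with a threshold of 0.05 on the adjusted p, called 669 (4.79%) higher and 488 (3.50%) lower in CYLD KO. These calls, and each one below, use 1 variance shared by all genes: with a separate variance per gene 0 genes passed, with 1813 at an unadjusted p under 0.05. Of the 7 ligands, 4 were past that threshold as higher, beside the 4.79% of all genes, and 0 as lower. Since that contrast chose the ligands, nothing is read from this count.

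**Figure D1:**
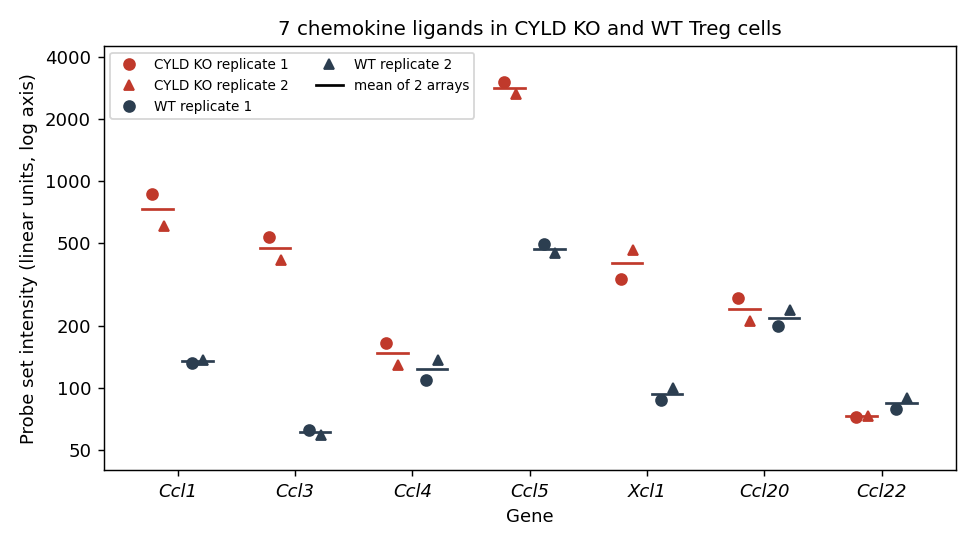
Probe set intensity (log axis) of the 7 ligands on each array, with circles for replicate 1, triangles for replicate 2 and bars for the mean of 2 arrays. Ccl1, Ccl3, Ccl5 and Xcl1 lie well apart between CYLD KO (left of each pair) and WT, whereas Ccl4 and Ccl20 overlap and Ccl22 is slightly lower in CYLD KO. Heights are comparable within a gene, not between genes.

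Among the ligands that share inflammatory receptors, Ccl5 and Ccl3 stood far above WT in the knockout, and Ccl4 did not. Ccl5, which attracts T cells, monocytes and eosinophils, read 3013 and 2637 in the knockout, against 494 and 449 in WT. Its lower knockout array was thus several times its higher wild-type array. Its mean was 2825 ± 266 in CYLD KO and 472 ± 31.9 in WT (SD, n = 2 each), a ratio of 5.99. Over the 4 pairs of a knockout and a wild-type array the log2 difference of Ccl5 ran from 2.41 to 2.74, the narrowest span of the 4 higher ligands.

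Ccl3, a monocyte and T cell attractant, read 534 and 414 in CYLD KO, against 62.8 and 59.0 in WT. The wild-type values lay below the filter, which removed genes with a mean log2 value under 6.29, and Ccl3 averaged 5.95 there. Its mean was 474 ± 84.9 in CYLD KO and 60.9 ± 2.71 in WT (SD, n = 2 each). The log2 difference was 2.93, the largest of the 7, and ran from 2.70 to 3.16 over the array pairs. If part of so dim a wild-type signal is background, the fold of 7.78 understates the change. Selection on these same arrays can overstate it, so the fold is not a lower bound.

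Ccl4, the close relative of Ccl3 and often released with it, read 165 and 128 in CYLD KO, against 109 and 137 in WT. The groups overlapped, since the lower knockout value lay below the higher wild-type value. The log2 difference was 0.25, and over the array pairs it ran from -0.09 to 0.59. In RefSeq, Ccl3 and Ccl4 are next to each other on chromosome 11 and their gene models overlap. The sources used here do not give the strand that the probes read, so signal shared between the pair cannot be told apart, although their values on these arrays were unlike.

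Ccl1 and Xcl1 each have a single main receptor, and both were higher in the knockout. Ccl1, the ligand of Ccr8, read 863 and 609 in CYLD KO, against 132 and 137 in WT. The wild-type arrays nearly coincided and the knockout arrays differed 1.42-fold. Its mean was 736 ± 179.5 in CYLD KO and 134 ± 3.57 in WT (SD, n = 2 each), with a log2 difference of 2.42 and a range over array pairs of 2.15 to 2.70.

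Xcl1, lymphotactin, attracts cross-presenting dendritic cells that carry Xcr1. It read 337 and 466 in CYLD KO, against 87.1 and 99.8 in WT. Its mean was 401 ± 90.8 in CYLD KO and 93.4 ± 8.98 in WT (SD, n = 2 each), with a log2 difference of 2.08 and a range over array pairs of 1.75 to 2.41. The wild-type mean log2 value, 6.56, lay little above the filter value of 6.29. Without detection calls that wild-type level cannot be told from background. Xcl1 was the only ligand of the 4 higher ones whose value was greater on CYLD KO replicate 2 than on replicate 1, at a ratio of replicate 1 to replicate 2 of 0.724. That ratio was 1.42 for Ccl1, 1.29 for Ccl3 and 1.14 for Ccl5.

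The homing ligands Ccl20 and Ccl22 were close to WT. Ccl20, which attracts Ccr6-bearing Th17 cells, Treg cells and B cells, read 272 and 209.7 in CYLD KO, against 199 and 237.5 in WT. The groups overlapped and the log2 difference was 0.14. Without CYLD KO replicate 1 the difference was -0.05, so its direction rested on that array. Ccl22, a Ccr4 ligand that draws Treg cells to dendritic cells, read 72.7 and 73.0 in CYLD KO, against 79.1 and 89.7 in WT. Both knockout values lay just below both wild-type values, with a log2 difference of -0.21. All 4 arrays were near the filter value for Ccl22, where no level can be told from background, since no detection calls accompany the values used here.

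The spread between replicates can be read without the genotype contrast. On the log2 scale the 2 WT arrays differed by 0.05 for Ccl1, 0.09 for Ccl3, 0.14 for Ccl5 and 0.19 for Xcl1, and by 0.32 for Ccl4 and 0.26 for Ccl20. The median gap of all tested genes in WT was 0.14 and its 95th percentile 0.40. The 2 knockout arrays differed by 0.50 for Ccl1, 0.46 for Xcl1, 0.37 for Ccl3, 0.36 for Ccl4, 0.37 for Ccl20 and 0.19 for Ccl5, where the median of all tested genes was 0.19 and the 95th percentile 0.51. Thus 5 of the 7 ligands had a knockout gap well above the median gene and under its 95th percentile, and Ccl22 had a gap of 0.01 there.

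The remaining chemokine ligands put the 7 in the context of their family. Of 16 other CC and CX3C ligands listed, 14 had a probe set of their own, 8 were above the filter, and 0 were higher or lower by limma, with 1 at an unadjusted p under 0.05. Their median log2 difference was 0, against -0.02 over all tested genes. The largest differences among the 8 were those of Ccl24, an eosinophil attractant (92.5 ± 2.09 in CYLD KO and 73.2 ± 0.823 in WT, limma adjusted p = 0.249), and Ccl6 (82.3 ± 9.60 in CYLD KO and 100.1 ± 8.57 in WT, limma adjusted p = 0.353; SD, n = 2 each). Ccl24 passed the filter only through its knockout values, with a wild-type mean log2 value of 6.21. Ccl25, which guides T cells to the gut, had a log2 difference of 0.19 with its brighter probe set. With the mean of its 2 probe sets the difference was -0.05. Ccl11, eotaxin, had a log2 difference of -0.08.

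**Figure D2:**
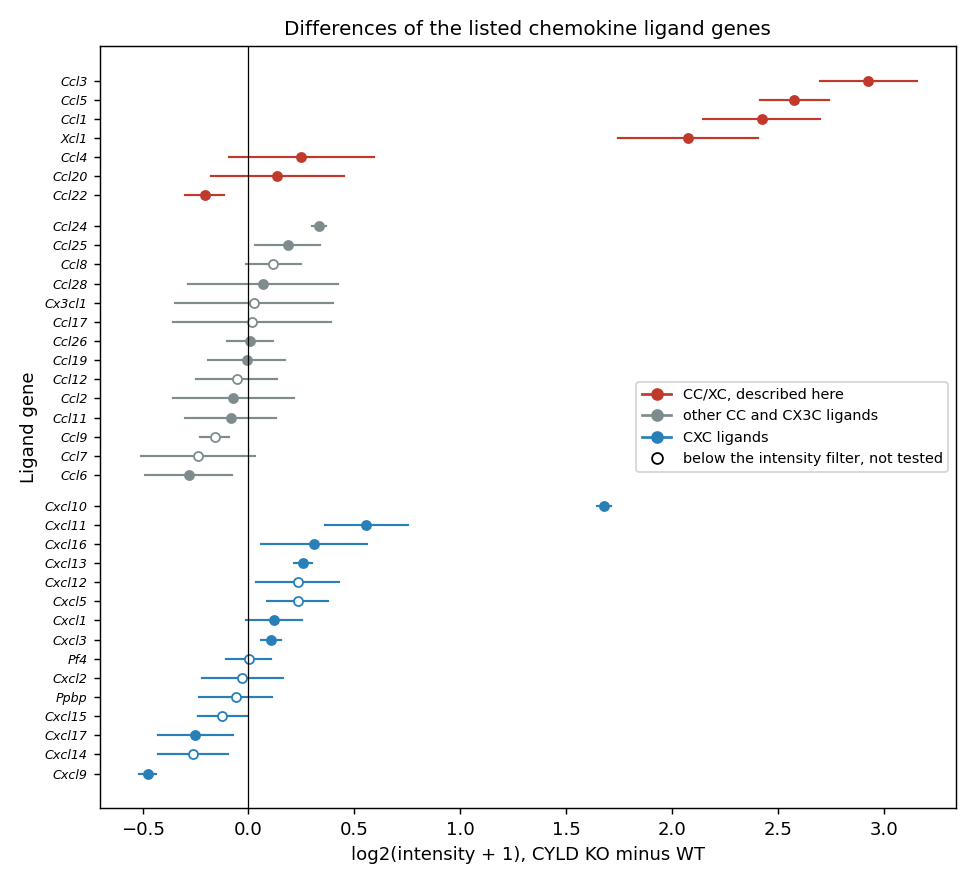
Log2(intensity + 1), CYLD KO minus WT, for the 7 ligands (red), the 14 other CC and CX3C ligands (grey) and the 15 CXC ligands (blue). Points are differences of group means, lines span the 4 pairs of a knockout and a wild-type array, and open points lie below the intensity filter. Ccl3, Ccl5, Ccl1 and Xcl1 lie above 2, Cxcl10 at 1.68, and the grey ligands between -0.28 and 0.33.

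Neighbouring ligand genes on chromosome 11 had unlike values. In the RefSeq gene order, Ccl1 follows a run of Ccl2, Ccl7, Ccl11, Ccl12 and Ccl8, and Ccl5 is separated from Ccl3 by 6 annotated genes that include Ccl9 and Ccl6. These neighbours are named for their position. Ccl2, the monocyte attractant, read 196.5 and 157 in CYLD KO, against 169 and 201 in WT, and did not pass the test (log2 difference -0.07, limma adjusted p = 0.860). Ccl7, Ccl8, Ccl9 and Ccl12 lay below the filter, with log2 differences between -0.24 and 0.12. Ccl2, Ccl6 and Ccl11, which were above it, did not pass the test.

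Of 15 CXC ligands, 8 were above the filter, with 3 at an unadjusted p under 0.05. By limma 2 rose while 0 fell, beside 4.79% and 3.50% of all genes. The median log2 difference of the 8 was 0.19, against -0.02 over all tested genes. The 2 that rose are ligands of Cxcr3. Cxcl10 read 753 and 772 in CYLD KO, against 240.2 and 235 in WT (log2 difference 1.68 ± 0.17 SE, limma adjusted p = 1.94e-20). Cxcl11 read 126 and 145 in CYLD KO, against 85.5 and 98.1 in WT (log2 difference 0.56 ± 0.17 SE, limma adjusted p = 0.0168), and its adjusted p was 0.109, 0.497 and 0.116 without CYLD KO replicate 2, WT replicate 1 and WT replicate 2. Cxcl9, the other Cxcr3 ligand, read 75.5 and 78.3 in CYLD KO, against 108 and 106 in WT, short of the threshold (log2 difference -0.48, limma adjusted p = 0.0575). Cxcl16, Cxcl13 and Cxcl17 had log2 differences of 0.31, 0.26 and -0.25 and did not pass. Of these, Cxcl13 was above the filter only through its knockout values and Cxcl17 only through its wild-type values.

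Receptors and scavengers of these ligands, with the atypical receptor Ccrl2, were examined in the same cells, since a Treg cell can both release and sense a chemokine. Of 10 genes listed, 9 were measured and 7 tested, with a median log2 difference of 0.38. Of those tested, 3 rose and 0 fell by limma, beside 4.79% and 3.50% of all genes. The lists were chosen with earlier results of these data known, so no enrichment is read from such counts. Of the 3 that rose, Ccr8 and Ccr6 are receptors of the ligands described here and Ccrl2 is not. Ccr8, the Ccl1 receptor of activated Treg cells, read 998 and 829.8 in CYLD KO, against 411 and 389 in WT (log2 difference 1.18 ± 0.17 SE, limma adjusted p = 4.83e-10). Ccr6, the Ccl20 receptor, read 582 and 559.7 in CYLD KO, against 269 and 235 in WT (log2 difference 1.18 ± 0.17 SE, limma adjusted p = 5.51e-10). Ccrl2, an atypical receptor that binds the attractant chemerin and does not signal as a classical chemokine receptor, read 332 and 298 in CYLD KO, against 161 and 157 in WT (log2 difference 0.98 ± 0.17 SE, limma adjusted p = 5.97e-07).

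**Figure D3:**
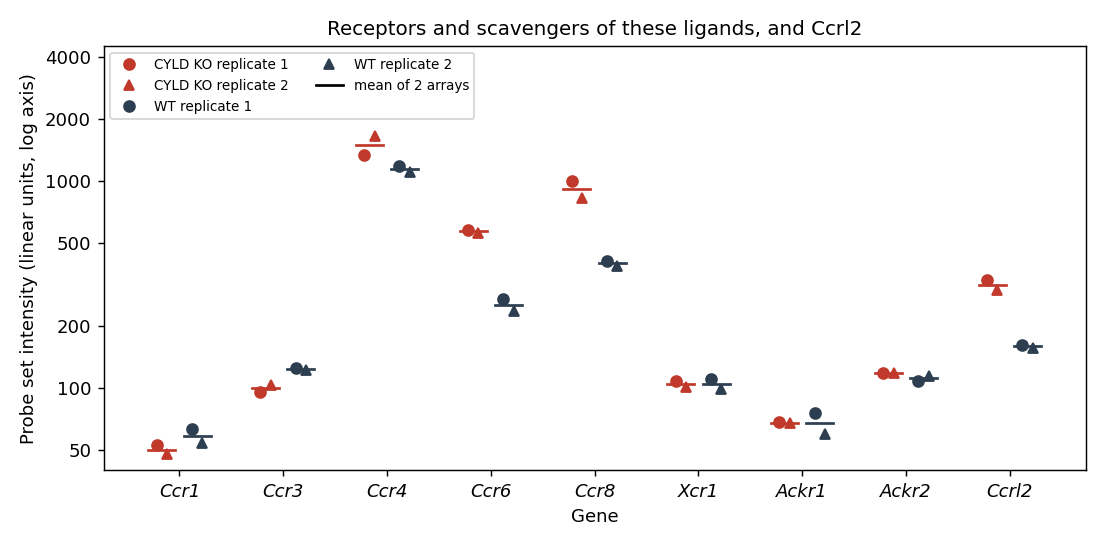
Probe set intensity (log axis) of 9 genes (receptors and scavengers of these ligands, and Ccrl2) on each array, with circles for replicate 1, triangles for replicate 2 and bars for the mean of 2 arrays. Ccr6, Ccr8 and Ccrl2 are higher on both CYLD KO arrays (left of each pair) than on both WT arrays, and Ccr1, Ccr3, Xcr1, Ackr1 and Ackr2 lie at or below 124.2 on every array.

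Ccr4, the receptor of Ccl22, read 1341 and 1653 in CYLD KO, against 1185 and 1106 in WT, and did not pass (log2 difference 0.38, limma adjusted p = 0.173). It did pass with an intensity trend in the variance (adjusted p = 0.0256) and without CYLD KO replicate 1 (0.0356). Ccr3 had a log2 difference of -0.30 (limma adjusted p = 0.307), Xcr1 one of 0.00 (0.998) and the scavenger Ackr2 one of 0.08 (0.835). Ccr1 and the scavenger Ackr1 lay below the filter, with log2 differences of -0.22 and 0.01. Thus the receptors of Ccl1 and Ccl20 rose, although Ccl20 itself overlapped between the genotypes, and Xcr1 did not pass the test while its ligand Xcl1 was higher.

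Transcription factors and mRNA decay factors known to act on chemokine genes changed in part. Of 17 listed, 16 were measured and tested, with a median log2 difference of 0.09. Of those tested, 4 rose and 1 fell by limma, beside 4.79% and 3.50% of all genes. Eomes, the T-box factor of cytotoxic and memory T cells, read 297 and 342.5 in CYLD KO, against 109 and 98.9 in WT (log2 difference 1.61 ± 0.17 SE, limma adjusted p = 8.08e-19). Tbx21, which encodes the T-box factor T-bet, read 234 and 302 in CYLD KO, against 182 and 158 in WT (log2 difference 0.65, limma adjusted p = 0.00331), and had an adjusted p of 0.103 without CYLD KO replicate 2 and 0.263 without WT replicate 2. Nfkb2 and Relb, which form the dimer of the noncanonical NF-kB pathway, both rose. Relb read 332 and 323 in CYLD KO, against 195 and 171 in WT (log2 difference 0.84 ± 0.17 SE, limma adjusted p = 3.92e-05). Nfkb2 had a log2 difference of 1.05 (limma adjusted p = 7.47e-08).

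**Figure D4:**
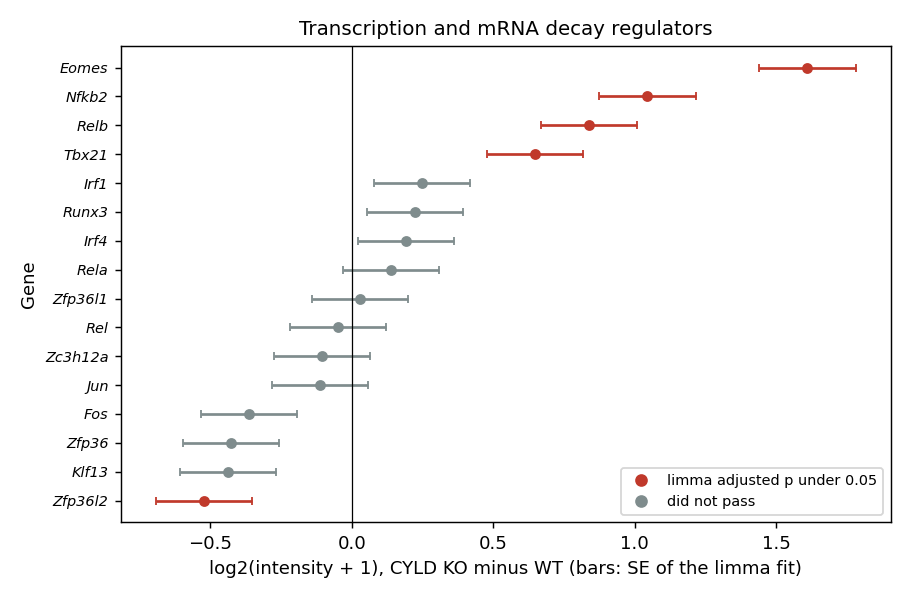
Log2(intensity + 1), CYLD KO minus WT, of 16 regulators with the SE of the limma fit as bars. Red points (Eomes, Nfkb2, Relb, Tbx21 and Zfp36l2) have an adjusted p under 0.05, and grey points do not.

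Of the canonical subunits, which were singled out once their values were known, Rel had a log2 difference of -0.05 (limma adjusted p = 0.911) and Rela one of 0.14 (0.697), neither past the threshold. Klf13, a Kruppel-like factor that drives late Ccl5 transcription in T cells, read 827 and 955 in CYLD KO, against 1283 and 1128 in WT, and did not pass (log2 difference -0.44, limma adjusted p = 0.0963). Klf13 passed with an intensity trend (adjusted p = 0.0135) and without CYLD KO replicate 2 (0.0413). Zfp36l2, one of the zinc finger proteins that bind AU-rich elements and shorten the life of mRNAs, read 1195 and 1174 in CYLD KO, against 1816 and 1592 in WT (log2 difference -0.52, limma adjusted p = 0.0295). Its adjusted p was 0.0507 with arrays centred on their medians, and 0.0614, 0.560 and 0.159 without CYLD KO replicate 2, WT replicate 1 and WT replicate 2. Its relative Zfp36, tristetraprolin, had a log2 difference of -0.43 and did not pass (limma adjusted p = 0.108), but did with an intensity trend (0.0243) and without CYLD KO replicate 1 (0.0131). Fos read 830.5 and 457 in CYLD KO, against 780.5 and 804 in WT (limma adjusted p = 0.199), and fell by a log2 difference of -0.79 without CYLD KO replicate 1 (adjusted p = 7.06e-04). Irf1 had a log2 difference of 0.25 and did not pass (limma adjusted p = 0.427).

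Genes with the most similar 4-array profile were sought for the 4 ligands with a log2 difference of at least 1, by the Euclidean distance between log2 profiles less their wild-type mean. This likeness is over 4 arrays and mostly repeats the genotype difference. Nearest to Ccl5 were Gzmk, a granzyme of effector T cells (distance 0.103), Aoc1 (0.129) and Pnkd (0.212). Nearest to Ccl1 were Sspo (0.157), Il1r2, the interleukin-1 decoy receptor (0.266), and Dscam (0.284). Nearest to Ccl3 were Pnkd (0.421), Tex35 (0.441) and Aoc1 (0.442). Nearest to Xcl1, on the side of higher values in CYLD KO replicate 2, were Igfbp7 (0.391), Ifitm2 (0.395) and Slc2a6, a glucose transporter family member (0.399).

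Other cell types that make these ligands were checked by their markers. In sorted bulk RNA, fewer cells of a type and less RNA per cell cannot be told apart. CD8 T and NK cells are strong sources of Ccl3, Ccl4, Ccl5 and Xcl1. Of 7 markers of those cells, 5 were tested and 0 were higher or lower by limma, with 0 at an unadjusted p under 0.05. Their summed intensity was 1040 and 931 in CYLD KO, against 904 and 950.1 in WT. Cd8b1 read 469 and 426 in CYLD KO, against 362 and 405.5 in WT, Prf1, perforin, read 121 and 115 in CYLD KO, against 117 and 123 in WT, and Klre1 averaged 108 ± 11.2 in CYLD KO and 122 ± 12.3 in WT (SD, n = 2 each). The NK receptor gene Ncr1, chosen after its values were seen, lay below the filter in both groups (56.3 and 60.7 in CYLD KO, against 54.8 and 63.9 in WT). The part of such cells in the ligand values was not tested.

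**Figure D5:**
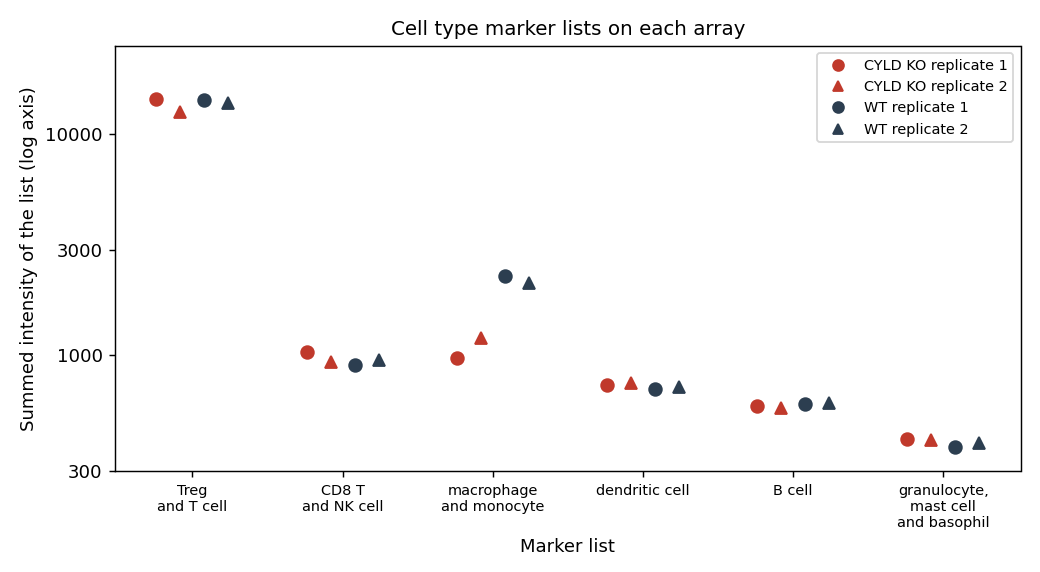
Summed intensity (log axis) of 6 marker lists on each array, with CYLD KO in red left of WT in dark blue, circles for replicate 1 and triangles for replicate 2. The macrophage and monocyte sum is lower on both CYLD KO arrays (973.5 and 1203) than on both WT arrays (2283 and 2126), and the other sums are close between the groups.

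Macrophage and monocyte markers were mostly lower in the knockout. Of 10 tested, 9 fell and 0 rose by limma, beside 3.50% and 4.79% of all genes. Their summed intensity was 973.5 and 1203 in CYLD KO, against 2283 and 2126 in WT. Vcam1 read 285 and 327.5 in CYLD KO, against 683 and 710.3 in WT, and C1qb read 78.7 and 95.3 in CYLD KO, against 292 and 218.5 in WT. Cd68 had the smallest fall of the 9 (log2 difference -0.52, limma adjusted p = 0.0318). Cells of this kind release Ccl2, Ccl3, Ccl4 and Ccl22, and their part in the ligand values was not tested. Of the dendritic cell, B cell and granulocyte lists, 0 of 5, 0 of 3 and 0 of 1 tested markers were called by limma, with 0, 1 and 0 at an unadjusted p under 0.05. The brightest markers of these lists had log2 differences of 0.29 for Zbtb46, -0.21 for Batf3, -0.45 for Cd79b, 0.17 for Cd22, 0.24 for Pax5, 0.03 for Cpa3, 0.13 for S100a9 and 0.11 for Elane, beside Xcr1 above. The Treg and T cell list had 0 of 7 called by limma, with 1 at an unadjusted p under 0.05 and summed intensities of 14380 and 12518 in CYLD KO, against 14286 and 13743 in WT. Its brightest members Cd3e, Il2ra and Cd4 had log2 differences of 0.01, -0.45 and 0.11.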

How the data were processed

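The deposited table gives 1 intensity per probe set and array on a linear scale, as follows from the values (26.6 to 7205); biotinylated cRNA was hybridised to Affymetrix arrays, per the labels' protocols. The sources used here do not say how the authors summarised or scaled them. Of 35557 probe sets, 21789 had 1 gene symbol in the platform annotation of 2016, 1621 several and 12147 none listed. Where a gene had several, the brightest by mean log2 value stood for it, which left 19938 genes. Intensities were converted to log2(value + 1), and 13956 genes above the 30th percentile of the mean log2 value were tested with limma 3.58.1 in R 4.3.3 (lmFit, eBayes, Benjamini-Hochberg over all genes tested, threshold 0.05). The prior degrees of freedom came out as infinite, which gives every gene the same standard error of 0.17, and adjusted p-values rest on variance pooled over all genes. Promoters and gene order came from RefSeq (GRCm38.p6). The ligands and lists were chosen with earlier results of these data known. Named genes are the 7 ligands, all receptors, genes of the ligand, receptor and regulator lists past the threshold, up to 4 others of each of those lists with the largest difference, the 3 nearest profiles and, of each marker list, the 3 brightest members whether past the threshold or not; genes named outside this rule are neighbours, checks of the samples, or marked as chosen after their values were seen. In the lists of receptors, regulators and B cell markers 1 gene each was not analysed here. Ccl21a and Ccl27a share probe sets with near-identical copies and were left out. Alternatives covered the filter, scaling, pseudocount, variance model, probe set choice, replicate block and leaving out each array. Same-numbered arrays did not deviate together across genes (r = -0.09), so the numbers were not taken as pairs.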

Additional observations from a re-analysis of the deposited data

How the results depend on the processing

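With 2 arrays per group and no detection calls, small differences and dim genes are the main limit. Ccl1, Ccl3, Ccl5 and Xcl1 kept their direction under every alternative tried. Since they were chosen for a large difference on these same arrays, nothing is read from that. The filter, the variance model and the choice of probe set could not alter their log2 differences. Without each array in turn the log2 difference ran from 2.17 to 2.67 for Ccl1, 2.74 to 3.11 for Ccl3, 2.48 to 2.67 for Ccl5, 1.84 to 2.31 for Xcl1, 0.07 to 0.43 for Ccl4, -0.05 to 0.32 for Ccl20 and -0.30 to -0.12 for Ccl22. With a pseudocount of 16 it was 2.66 for Ccl3. With no pooling of variances across genes, 0 genes were higher and 0 lower in limma's ordinary fit, including 0 other ligands, 0 receptors and 0 regulators in either direction (1813 genes at an unadjusted p under 0.05, with 4 other ligands, 4 receptors and 4 regulators among them, and adjusted p-values of 0.208 or more). Without 1 array there were 254 to 899 higher and 110 to 767 lower genes over the whole table, 1 to 2 other ligands higher, 3 to 4 receptors higher, 3 to 4 regulators higher and 0 to 3 regulators lower. The low end of the higher genes was without WT replicate 2 (254; 288 without WT replicate 1) and the high end of the lower genes without CYLD KO replicate 1. Among genes above the median intensity 1 other ligand was higher. Regulators called lower numbered 0 with median centring and 3 with an intensity trend. With the replicate block, 603 genes were higher and 428 lower, and the counts for the other ligands (2 higher), receptors (3 higher) and regulators (4 higher, 1 lower) were as without it.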
